A study of Mus musculus with 912 samples.

Results

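The scaffolds of the postsynaptic density examined here were the 10 genes of the Homer, Shank and Dlgap families: Homer1, Homer2, Homer3, Shank1, Shank2, Shank3, Dlgap1, Dlgap2, Dlgap3 and Dlgap4. They were taken by symbol, whatever their values, and all 10 were found among the 42772 genes of the count tables and the 40198 genes of the log2(TPM+1) tables. Nuclei came from the hippocampus of wild-type female C57BL6 mice aged 7.75 to 9 weeks, which carried no transgene, and each of the 912 single-nucleus libraries was 1 nucleus. In the first cohort (360 nuclei), mice either stayed in the home cage (HC) or were taken 1 h after a stay of 15 min in an unfamiliar environment (NE), nuclei were sorted on NEUN, PROX1, CTIP2 and FOS protein, and the labels give each nucleus a predicted cell type (DG, CA1, CA3, Sub, VIP, Ivy, Pvalb or Th). In the later set (552 nuclei), all nuclei were DG nuclei sorted as ARC+: FOS- nuclei taken 4 h or 5 h after a single exposure, and FOS+ or FOS- nuclei of mice that were put back 4 h later into the same environment (A>A) or into a different one (A>C) and taken 1 h after that. After the thresholds on reads, genes and Arc, 783 nuclei of 31 mice were left, with 142275 to 5885216 counts per nucleus (median 1251690).

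In the postsynaptic density, Dlgap proteins sit between the PSD-95 family of membrane-linked scaffolds, which they bind through the guanylate kinase domain, and the Shank proteins, which bind Dlgap with their PDZ domain. Shank in turn binds Homer, and long Homer proteins join into multimers that tie Shank to group I metabotropic glutamate receptors and to the inositol trisphosphate receptor. Homer1 also gives rise to Homer1a, a short product of an immediate early transcript that lacks the part needed for multimers, and it is a classical activity-induced gene of hippocampal neurons. All values below are nuclear RNA of the whole gene, so the long and short Homer1 products are counted together.

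The make-up of the DG groups touches all results in DG. DG nuclei of the 1 h groups came from 1 mouse, DG nuclei of HC from 4 mice of which 2 (mouse 6 with 18 nuclei, mouse 7 with 5) had enough nuclei to be summed, and HC, 1 h and later nuclei were in library pools of different dates, so exposure and pool date cannot be told apart there. The comparisons with HC share those HC mice. Fos (mean 3.84 on the log2(TPM+1) scale in DG 1 h FOS+ nuclei, 0.33 in FOS-) and Arc (9.75 and 0.99) followed the sort. The DG markers differed in how often they were found. Among 558 DG nuclei, Prox1 had a count in 96.4%, C1ql2 in 70.6% and Dsp in only 16.7%. Prox1, whose protein was used in the sort, was not specific to DG. It also had a count in 77.3% of VIP and 71.4% of Th nuclei, where C1ql2 and Dsp had none. In the paper the label Th stands for thalamus, not for the gene of that symbol. That gene had a count in 42.9% of the 7 Th nuclei and in 45.9% of DG nuclei. The summed mean level of 8 markers of glia, microglia and endothelium ranged from 5.34 (A>C FOS+) to 8.69 (DG 1 h FOS-) over the DG groups, Mbp being the highest in most. Its part in the results was not tested.

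The 10 members differed widely in level. On the log2(TPM+1) scale, which is per length and so allows genes to be set side by side, Dlgap1 was the most abundant over all 783 nuclei (mean 8.42), followed by Shank1 (6.58) and Dlgap2 (5.65). Dlgap4 (3.64), Homer1 (3.46), Shank2 (2.99) and Dlgap3 (2.43) were intermediate. Homer2 (1.11), Homer3 (0.63) and Shank3 (0.56) were low. Detection followed the same order only in part: a count was found in 99.7% of nuclei for Shank1, 99.6% for Dlgap1, 90.0% for Dlgap2, 84.4% for Shank2 and 74.1% for Homer1, against 18.8% for Shank3 and 12.5% for Homer3. Homer2 was counted in 62.1% of nuclei in spite of its low mean.

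**Figure D1:**
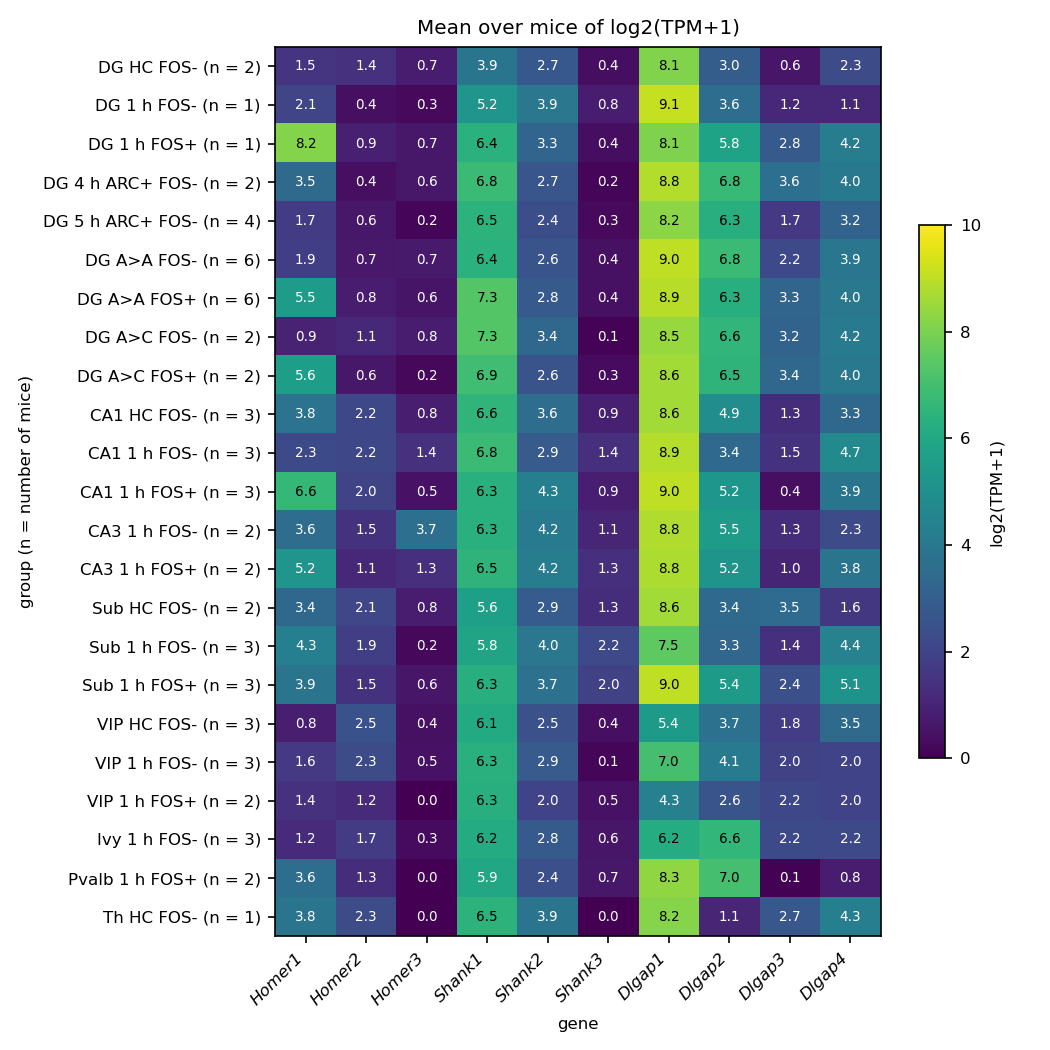
Mean log2(TPM+1) of the 10 members (columns) in each cell type, exposure and FOS group (rows), averaged over mice. Dlgap1 and Shank1 are high in nearly every group, Homer1 is highest in DG 1 h FOS+ (8.16) and lowest in VIP HC (0.83), and Shank1 is lowest in DG HC (3.87).

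Homer1, the adaptor with the activity-induced short form, lies on the plus strand at chr13:93299635-93405129 of GRCm38 and has 12 annotated transcripts in GENCODE. RefSeq (GRCm38.p6) gives it 2 start sites, and both promoter windows are printed because Homer1 showed the largest changes of the family. Each runs from 250 bases before the start to 50 bases after it, 5′ to 3′, on the gene's strand. Capitals mark TGACG, the shorter form of the cAMP response element. Both strands were searched for it, for the full element TGACGTCA (which contains it), for the AP-1 site TGANTCA and for the CArG box. The first window (chr13:93303507-93303806) starts transcription at base 93303757, the first base of transcript Homer1-207, and the second (chr13:93307784-93308083) at base 93308034, the first base of Homer1-202. The window of Dlgap4 (chr2:156720715-156721014, plus strand) is set beside them as the other member whose window held the letters.
Homer1 promoter 1: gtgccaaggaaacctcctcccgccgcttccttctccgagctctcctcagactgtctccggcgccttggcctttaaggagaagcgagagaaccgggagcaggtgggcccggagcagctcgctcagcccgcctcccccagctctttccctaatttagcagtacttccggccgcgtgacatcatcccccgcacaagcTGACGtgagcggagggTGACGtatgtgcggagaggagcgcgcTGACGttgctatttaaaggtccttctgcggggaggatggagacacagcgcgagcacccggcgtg
Homer1 promoter 2: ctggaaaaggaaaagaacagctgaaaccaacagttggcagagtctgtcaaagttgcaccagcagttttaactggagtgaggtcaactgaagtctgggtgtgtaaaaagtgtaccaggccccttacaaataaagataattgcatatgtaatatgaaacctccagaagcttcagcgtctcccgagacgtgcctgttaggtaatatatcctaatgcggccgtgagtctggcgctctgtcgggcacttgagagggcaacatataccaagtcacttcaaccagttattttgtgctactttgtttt
Dlgap4 promoter: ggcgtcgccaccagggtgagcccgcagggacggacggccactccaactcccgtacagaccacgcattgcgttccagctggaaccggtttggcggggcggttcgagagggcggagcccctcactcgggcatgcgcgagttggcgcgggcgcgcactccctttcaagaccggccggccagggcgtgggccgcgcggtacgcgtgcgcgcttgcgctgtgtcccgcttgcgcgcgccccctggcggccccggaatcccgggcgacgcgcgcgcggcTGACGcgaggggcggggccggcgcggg

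The first Homer1 window held TGACG 3 times, beginning 56, 40 and 14 bases before the start, the second held none, and the Dlgap4 window held it once, 24 bases after the start. Of 32851 promoter windows of the same length, 20.8% held TGACG at least once and 1.03% at least 3 times. The full element was in 1.79%, the AP-1 site in 7.81% and the CArG box in 1.63% of them, and in none of the 10 windows found for 7 members. A match is a description of the letters and no more.

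In DG nuclei, Homer1 was low in HC, high in FOS+ nuclei 1 h after NE and between these in ARC+ nuclei 4 h later. Its mean level was 1.74 and 1.24 log2(TPM+1) in the 2 HC mice, 2.08 in FOS- nuclei and 8.16 in FOS+ nuclei of the 1 h mouse. At 4 h it was 3.42 and 3.48 in the 2 mice, and at 5 h it was 2.27, 0.93, 2.45 and 1.25 in the 4 mice. The 4 h values lay above both HC mice, and the 5 h values spanned them. In nuclei, the same order held: Homer1 was at 5 or more in 24 of 26 DG 1 h FOS+ nuclei (92.3%), 6 of 27 FOS- nuclei (22.2%), 5 of 25 HC nuclei (20.0%), 26 of 68 nuclei at 4 h (38.2%) and 11 of 59 at 5 h (18.6%).

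**Figure D2:**
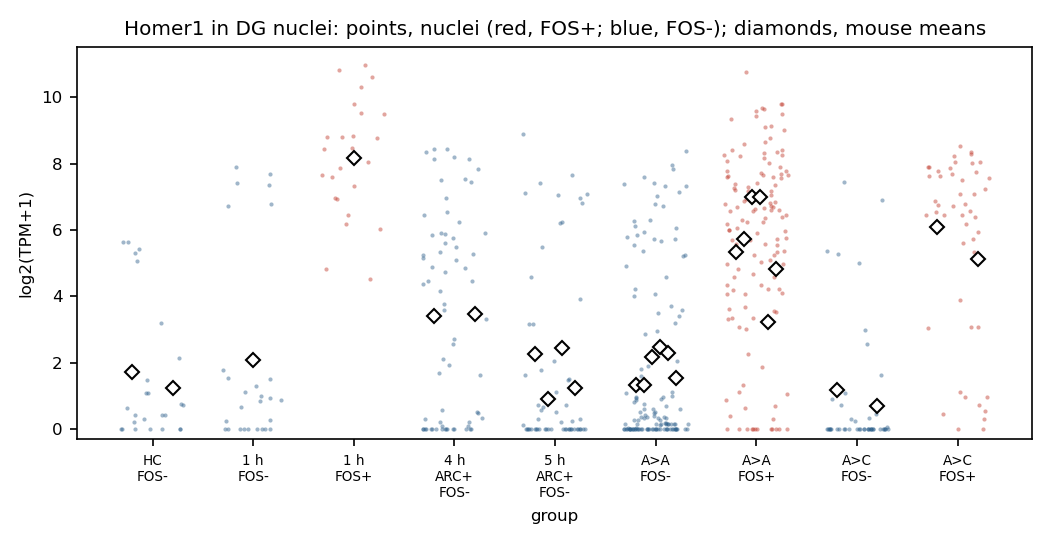
Homer1 in DG, in log2(TPM+1), by group from HC to the re-exposed mice: small points are nuclei (red for FOS+, blue for FOS-) and open diamonds are means per mouse. The FOS+ groups sit high at 1 h, in A>A and in A>C (means over mice of 8.16, 5.52 and 5.61). The FOS- groups of the same exposures have means of 0.94 to 2.08, from other mice in A>C and in part from other mice in A>A.

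In the edgeR test on counts summed per mouse, Homer1 was 6.94 higher on the log2 scale in DG 1 h FOS+ than in HC (SE 1.35, adjusted p = 0.0238), the 1 member called among 10, where 0.27% of the 24405 genes tested were called and 0.242% in that direction. The 1 h arm is 1 mouse, which the test assumes to vary like the mice of the other DG groups. Leaving out either HC mouse ended the call, with edgeR adjusted p-values of 0.117 without mouse 6 and 0.372 without mouse 7, when the remaining HC mouse is assumed to vary like the other DG groups. With mice split by pool date it was 6.95 (adjusted p = 0.115), and with HC mice of a single nucleus kept, an alternative chosen after seeing the data, it was 7.48 (SE 1.11, edgeR adjusted p = 0.00159). Between FOS+ and FOS- nuclei of the single 1 h mouse, Homer1 differed by 4.29 (SE 1.62), which was not called by edgeR (adjusted p = 1.0) and was called by limma on mean log2(TPM+1) (6.08, SE 1.21, adjusted p = 0.0121). That comparison too rests on the 1 mouse. edgeR called 0 members there (0.0451% of all genes were called), with 2 at an unadjusted p below 0.05, and DESeq2 called 1, Dlgap4, and limma 1, Homer1. In DG 1 h FOS- against HC, 0 members were called by any of the 3 tools (edgeR 0.0041% of genes), and 1 had an unadjusted edgeR p below 0.05. Against HC, Homer1 was 3.67 higher at 4 h (SE 1.11, edgeR adjusted p = 0.388), which DESeq2 called (0.0232), and 2.23 higher at 5 h (SE 0.97, edgeR adjusted p = 0.463), which none of the 3 tools called. At 4 h against 1 h FOS+, Homer1 was 3.28 lower by edgeR without a call, and limma called it at a difference of -4.71 (SE 1.04, adjusted p = 0.0487). edgeR called 0 members in that comparison (0.0164% of genes), with 1 at an unadjusted p below 0.05, and DESeq2 called 0.

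After re-exposure, Homer1 was again higher in FOS+ than in FOS- DG nuclei of both kinds of mice. In A>A, the means of the 6 mice with FOS+ nuclei ran from 3.23 (mouse 26) over a median of 5.54 to 7.01 (mouse 25), and those of the 6 mice with FOS- nuclei from 1.34 over 1.85 to 2.48. No FOS- mouse reached the lowest FOS+ mouse, a separation in this direction that 1.75% of the genes compared had. All 4 A>A mice with both kinds of nuclei had more Homer1 in FOS+ nuclei, by 0.93 to 4.81. In A>C, FOS+ nuclei had 6.10 and 5.12 in 2 mice, and FOS- nuclei 1.19 and 0.70 in 2 other mice, without overlap, as in 17.0% of genes. Those FOS+ and FOS- nuclei were also in pools of different dates, so FOS and pool date cannot be told apart in A>C. The share of nuclei at 5 or more was 65.4% of 130 in A>A FOS+, 20.2% of 129 in A>A FOS-, 72.9% of 48 in A>C FOS+ and 10.9% of 46 in A>C FOS-.

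The tools divided on these differences. For A>A, edgeR gave 3.35 (SE 0.63, adjusted p = 0.0569), DESeq2 3.39 (adjusted p = 1.08e-06) and limma 3.66 (SE 0.49, adjusted p = 8.18e-05), and with the animal as a block, edgeR gave 3.03 (SE 0.80, adjusted p = 0.682). When either pool of 5 h mice was kept out of the fit, an alternative chosen after seeing the data, edgeR called the A>A difference (adjusted p = 0.0163 with the pool of mice 8 and 9 alone and 0.0472 with that of mice 22 and 23 alone). For A>C, edgeR gave 3.79 (SE 1.12, adjusted p = 0.866), DESeq2 an adjusted p of 0.00572 and limma 4.67 (SE 0.85, adjusted p = 0.00543). Homer1 was the 1 member at an unadjusted edgeR p below 0.05 in each comparison, edgeR called 0 of 10 in both (0.041% of genes in A>A and 0.0% in A>C), and DESeq2 and limma each called 1, Homer1. By pool date, the mean of A>A FOS+ nuclei was 4.10 in the pool of mice 26 and 27, 5.55 in that of mice 15 and 16 and 7.00 in that of mice 24 and 25. A>A and A>C FOS+ nuclei differed in Homer1 by 0.05 (SE 0.82, edgeR adjusted p = 1.0), with 6 and 2 mice. No member was called between those groups by edgeR (0.0% of genes, 0 at an unadjusted p below 0.05), DESeq2 or limma.

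**Figure D3:**
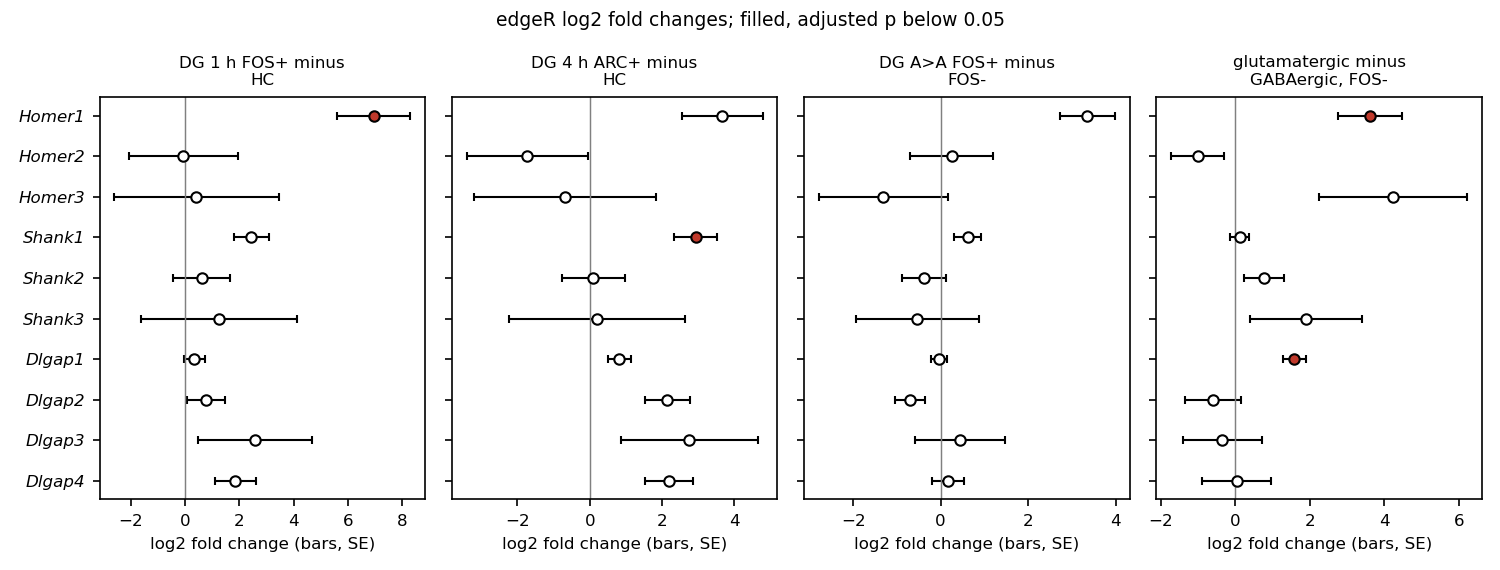
Log2 fold changes of the 10 members by edgeR with bars of 1 SE, filled where the adjusted p was below 0.05, in DG 1 h FOS+ minus HC, DG 4 h minus HC, DG A>A FOS+ minus FOS- and glutamatergic minus GABAergic FOS- nuclei. The filled points are Homer1 at 6.94 in the first panel, Shank1 at 2.93 in the second, and Dlgap1 at 1.59 and Homer1 at 3.61 in the last, and A>A has none.

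Outside DG, the group with the highest mean Homer1 was CA1 FOS+ (6.65), followed by the 2 CA3 nuclei of HC (5.43, 1 mouse) and CA3 FOS+ (5.22). CA1 FOS+ nuclei had 7.60, 5.88 and 6.47 in 3 mice, FOS- nuclei of the same mice had 3.78, 1.88 and 1.11, and CA1 nuclei of 3 HC mice had 3.95, 2.56 and 4.97. FOS+ was higher in 3 of 3 CA1 mice, by 3.82 to 5.36, and the HC values lay between the groups, overlapping the FOS- values. The Arc limit, applied to FOS- nuclei alone, left 21 of 32 CA1 FOS- nuclei at 1 h and 19 of 35 in HC. The FOS- and HC levels are those of the nuclei left. Homer1 was at 5 or more in 31 of 33 CA1 FOS+ nuclei (93.9%). edgeR gave a FOS+ to FOS- difference of 2.70 (SE 1.16, adjusted p = 1.0; 3.79, SE 1.07, adjusted p = 1.0 with the animal as a block), and called 0 genes of any kind in the 3 CA1 comparisons (0.0%), which had 1, 1 and 0 members at an unadjusted p below 0.05. DESeq2 and limma called 0 members there too. In CA3, FOS+ nuclei had 6.42 and 4.02 against 3.84 and 3.33 in the same 2 mice, and in Sub the FOS+ and FOS- ranges overlapped (3.49 to 4.30 and 2.84 to 6.45).

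VIP interneurons had little Homer1 in any group. FOS+ nuclei had 1.15 and 1.73 in 2 mice, FOS- nuclei 1.29, 1.27 and 2.36 in 3 mice, and HC nuclei 0.65, 1.18 and 0.65 in 3 mice. The ranges overlapped between FOS+ and FOS-, and the FOS effect was below 0 in both mice that had both kinds of nuclei (-0.64 and -0.12). By edgeR it was -0.69 (SE 1.43). The test of the difference between cell types gave a FOS effect on Homer1 4.96 larger in DG than in VIP (p = 0.0328, adjusted p = 1.0), 3.34 larger in CA1 than in VIP (adjusted p = 0.898) and 1.62 larger in DG than in CA1 (adjusted p = 1.0), so none of the differences passed. edgeR called 0 members in those 3 tests (0.00441% of genes in each of the DG tests and 0.0% in CA1 minus VIP), with 1 member at an unadjusted p below 0.05 in each. In the 3 VIP comparisons and in FOS+ against FOS- of CA3 and Sub it called 0 members too (0.0% of genes), with 0 at an unadjusted p below 0.05, and DESeq2 and limma called 0.

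Homer2 and Homer3, which make long Homer proteins, stayed low. Homer2 had DG group means of 0.40 (4 h) to 1.43 (HC), a range that also held CA3 FOS+ (1.10) and VIP FOS+ (1.24). It was at 0.22 in the 2 Pvalb nuclei of HC (1 mouse). Among groups of mice with at least 2 nuclei, it was highest in VIP HC nuclei (2.53, SD 0.48, n = 3 mice). Single Ivy nuclei had 4.35, 5.97 and 0.38 in HC and 5.24 and 5.97 in 1 h FOS+. None of its comparisons was called by edgeR, glutamatergic minus GABAergic FOS- nuclei being at -1.01 (SE 0.71, adjusted p = 0.554). Homer3 was highest in CA3, where FOS- nuclei of the 1 h mice had 2.54 and 4.77 and FOS+ nuclei of the same mice 2.08 and 0.61. It was at 0 in the FOS+ VIP nuclei and below 1 in every DG group mean. In FOS- nuclei, CA3 exceeded CA1 by 1.68 by edgeR (SE 2.19, adjusted p = 1.0) and by 3.41 by limma (SE 0.68, adjusted p = 0.0128), the 1 member called by limma in that comparison, where edgeR called 0 genes (0.0%) and 0 members had an unadjusted p below 0.05.

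Shank1, a scaffold that binds both Homer and Dlgap, was high in nearly every group and lowest in DG HC nuclei. Its means in the 2 HC mice were 4.18 and 3.56 log2(TPM+1). The 1 h mouse had 5.22 in FOS- and 6.37 in FOS+ nuclei, the 4 h mice 7.07 and 6.55, and the 5 h mice 5.93, 6.39, 6.82 and 6.76. Every later mouse lay above both HC mice, as did all A>A mice (5.36 to 7.96) and A>C mice (6.72 to 7.64). CA1 nuclei of HC mice, by contrast, had 5.78 to 7.31. The count test put Shank1 2.93 above HC at 4 h (SE 0.59, edgeR adjusted p = 0.0352) and 3.16 above HC at 5 h (SE 0.56, edgeR adjusted p = 0.0158). It was the 1 member called in each, where 0.246% and 0.262% of genes were called. At 1 h, FOS+ nuclei were 2.45 above HC (SE 0.65, edgeR adjusted p = 0.196), which DESeq2 called (0.0148) and limma did not. Without HC mouse 6 edgeR called it too, at 3.67 (adjusted p = 0.0232).

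That difference rests on few HC nuclei. Without HC mouse 7 it was 2.28 at 4 h (edgeR adjusted p = 0.525) and 2.51 at 5 h (0.249). Without mouse 17 or mouse 21 of the 4 h group the adjusted p was 0.187 and 0.0877. The single DG nuclei of 2 further HC mice, which were too few to sum, had 7.26 and 5.36, above both HC mice in the test. With these mice kept as sums of 1 nucleus, an alternative chosen after seeing the data, Shank1 was 1.73 above HC at 4 h (SE 0.64, edgeR adjusted p = 0.478) and 1.99 at 5 h (SE 0.57, 0.151), and neither was called.

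**Figure D4:**
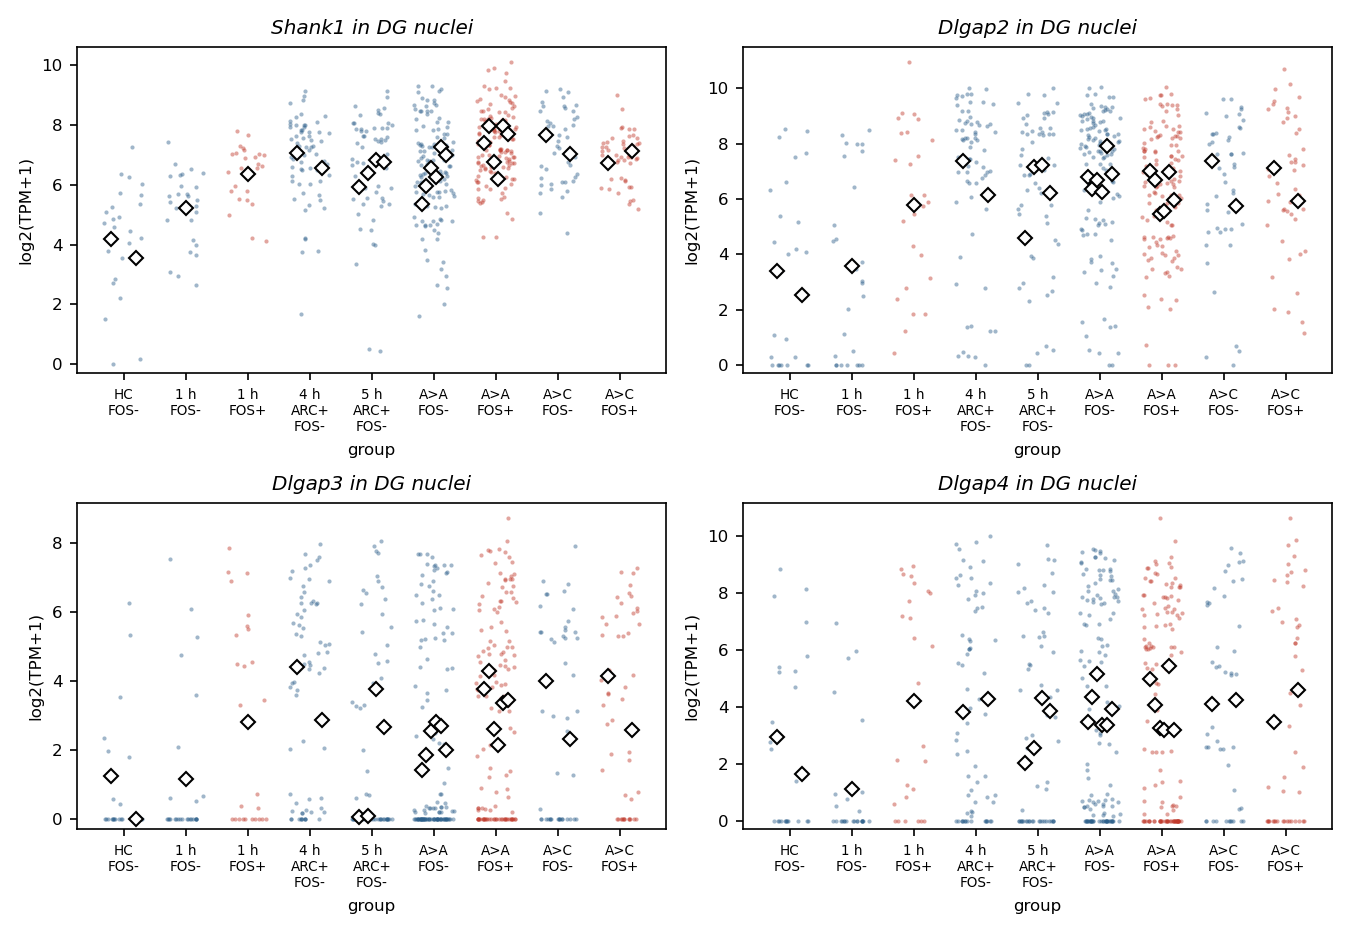
Shank1, Dlgap2, Dlgap3 and Dlgap4 in the DG groups, in log2(TPM+1): small points are nuclei (red for FOS+, blue for FOS-) and open diamonds are means per mouse. The HC mice are the lowest for Shank1 (3.56 and 4.18), and the 5 h mice split by pool date for Dlgap3 (0.07 and 0.10 against 2.67 and 3.79).

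Within re-exposed mice, Shank1 overlapped between FOS+ and FOS- nuclei. A>A FOS+ nuclei exceeded FOS- nuclei by 0.62 (SE 0.32, edgeR adjusted p = 0.367), with overlapping ranges and a higher FOS+ value in 3 of 4 mice. In FOS- nuclei of the first cohort, DG was below CA1 in Shank1 by 1.88 (SE 0.44), which edgeR did not call (adjusted p = 0.132) and DESeq2 did (5.27e-05), and below VIP by 1.42 (SE 0.43, edgeR adjusted p = 0.161). Most DG nuclei in those comparisons were of HC mice 6 and 7 and the 1 h mouse. Shank2, a scaffold of the same architecture, varied from 2.03 (VIP 1 h FOS+) to 5.07 (the 2 CA3 nuclei of HC, from 1 mouse) and 4.31 (CA1 1 h FOS+), and was called in no comparison by edgeR. Shank3 stayed at 0.09 to 0.79 in DG group means, with its highest mean in Sub 1 h FOS- (2.20), where 3 mice had 3.55, 2.94 and 0.09. That spread over mice was larger than the distance to any other glutamatergic group.

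Dlgap1, the linker with the highest level, was lower in VIP than in CA1 nuclei, while VIP overlapped with some DG and Sub mice. In CA1 its mouse means were 8.25 to 9.41, and in DG they were 7.10 to 9.53 over all 9 groups. VIP nuclei had 4.40, 5.94 and 5.99 in 3 HC mice, 7.95, 6.16 and 7.01 in FOS- nuclei and 3.58 and 5.11 in FOS+ nuclei of 1 h mice. Every VIP mouse was below every CA1 mouse. The highest VIP mean (7.95) lay above the lowest of DG (7.10). Sub FOS- nuclei had 7.30, 6.01 and 9.31 in 1 h mice and 7.98 and 9.23 in HC mice, and Sub FOS+ nuclei 8.53 to 9.48. CA3 mice had 8.53 to 9.21. Glutamatergic FOS- nuclei (the mean of DG, CA1, CA3 and Sub) exceeded GABAergic ones (the mean of VIP and Ivy) by 1.59 in Dlgap1 (SE 0.32, edgeR adjusted p = 0.0112) and by 3.61 in Homer1 (SE 0.85, edgeR adjusted p = 0.0326). Those were the 2 members called of 10, both higher in glutamatergic nuclei, where 1.62% of 20824 genes were called and 0.831% in that direction. The median of the 10 members was 0.45 against 0.39 over all genes. Pvalb nuclei, GABAergic too, were not in that comparison. Their Dlgap1 was 9.45 in 2 HC nuclei of 1 mouse and 8.24 and 8.45 in FOS+ nuclei of 2 mice. Single Pvalb nuclei had 9.81 (HC) and 6.54 (FOS-). Ivy FOS- nuclei had 7.84, 2.56 and 8.22 in 3 mice at 1 h, and single HC nuclei 8.39, 7.78 and 8.84. The lower Dlgap1 thus held for VIP and not for every GABAergic group.

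These cell type calls varied in firmness. Without the 1 h mouse 10 Dlgap1 had an edgeR adjusted p of 0.0503. The Homer1 call was lost without any 1 of 7 of the 13 mice in that comparison (edgeR adjusted p-values of 0.0583 to 0.164), namely 1 h mice 2, 3, 5 and both mice numbered 4, HC mouse 8 and, of the 2 HC mice numbered 4, the one of the earlier pool date. Between single cell types Dlgap1 was 1.66 higher in DG than in VIP (SE 0.45, edgeR adjusted p = 0.112) and 1.44 higher in CA1 than in VIP (SE 0.39, edgeR adjusted p = 0.117), and Homer1 was 3.28 higher in CA1 than in VIP (SE 1.02, adjusted p = 0.161). edgeR called 0 members in the 5 comparisons of single cell types, where 0.096% (DG minus CA1, and 0.0336% with DG higher), 0.447% (DG minus VIP), 0.432% (CA1 minus VIP), 0.0% (CA3 minus CA1) and 0.0096% (Sub minus CA1) of genes were called and 1, 2, 2, 0 and 0 members had an unadjusted p below 0.05. With sums of at least 5 nuclei, Dlgap1 was called in both comparisons with VIP (1.80 in DG, adjusted p = 0.0246, and 1.66 in CA1, adjusted p = 0.0432). In VIP nuclei, Dlgap1 was lower in FOS+ than in FOS- nuclei of both mice that had both (by -2.58 and -1.90), and the ranges over mice did not overlap, as for 7.76% of genes in that direction, without a call.

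Dlgap2, Dlgap3 and Dlgap4, linkers of the same kind, had lower means in the 2 DG HC mice than in most mice of the ARC+ groups. Dlgap2 had 3.39 and 2.55 in HC, 3.57 in 1 h FOS- and 5.80 in 1 h FOS+ nuclei, 7.36 and 6.15 at 4 h and 4.59 to 7.24 at 5 h. Dlgap4 had 2.95 and 1.65 in HC, 1.12 in 1 h FOS-, 4.21 in 1 h FOS+, 3.82 and 4.27 at 4 h and 2.02 to 4.31 at 5 h. Between 4 h and these 2 HC mice, Homer1, Shank1, Dlgap2, Dlgap3 and Dlgap4 did not overlap, with 4 h higher. In that direction, 17.6% of all genes compared did not overlap. Homer2 and Shank3 did not overlap either, with 4 h lower, and the share of all genes for that direction is not given here. Homer2 had 0.45 and 0.34 at 4 h against 0.57 and 2.29 in HC. Shank3 had 0.17 and 0.20 at 4 h against a mean over mice of 0.36 (SD 0.14) in HC. At 5 h, Shank1 and Dlgap2 of the 10 were separated from the 2 HC mice with 5 h higher, where 6.03% of genes were. The single nuclei of 2 further HC mice had 5.16 and 7.65 in Dlgap2, 0 and 6.98 in Dlgap4 and 7.26 and 5.36 in Shank1. For each of these genes, 1 nucleus lay above both 4 h mice. Homer1 (0.42 and 2.15) and Dlgap3 (0 in both) stayed below them. The edgeR test placed Dlgap2 2.15 above HC at 4 h (SE 0.61, edgeR adjusted p = 0.313) and 1.68 at 5 h (SE 0.55, 0.297), and limma called both, at 3.79 (SE 0.82, adjusted p = 0.00863) and 3.33 (adjusted p = 0.00295). Dlgap4 was 2.20 above HC at 4 h (SE 0.67, edgeR adjusted p = 0.385, DESeq2 0.0351) and 1.76 at 5 h (SE 0.60, edgeR adjusted p = 0.331, DESeq2 0.0194). With sums of 1 nucleus kept, an alternative chosen after seeing the data, edgeR called Dlgap2 at 4 h (2.49, SE 0.53, adjusted p = 0.0465) and not at 5 h (2.07, 0.0593).

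Dlgap3 divided the 5 h mice by pool date. Mice 22 and 23 had 0.07 and 0.10, with a count in 12.5% of their 16 nuclei, and mice 8 and 9 had 3.79 and 2.67, with a count in 62.8% of 43 nuclei. Median counts per nucleus were higher, not lower, in the pool of mice 22 and 23 (1687363 against 366874), and those nuclei also had fewer genes (median of 4249 against 5544). Homer3 and Shank3 were at 0 in the same pool. Against HC, the 5 h difference of Dlgap3 was 1.74 by edgeR with all 4 mice (SE 1.68, adjusted p = 0.731). In an alternative chosen after seeing the data, it was 2.77 with the pool of mice 8 and 9 alone (SE 1.20, adjusted p = 0.593) and -6.14 with the pool of mice 22 and 23 alone (SE 1.51, adjusted p = 0.0405), so the direction turned with the pool. A>A FOS- nuclei, likewise, were 0.52 above 5 h with all mice (SE 1.16, edgeR adjusted p = 0.94), -0.49 with mice 8 and 9 alone and 8.40 with mice 22 and 23 alone (SE 1.60, adjusted p = 0.00836). Shank1 stayed called against HC at 5 h in both pools, at 2.94 (SE 0.60, edgeR adjusted p = 0.0451) with mice 8 and 9 and 3.38 (SE 0.62, adjusted p = 0.00607) with mice 22 and 23.

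The remaining differences of these linkers in A>A were small. Dlgap3 ran from 2.14 to 4.30 in FOS+ mice and from 1.42 to 2.82 in FOS- mice, overlapping, and edgeR put the groups 0.45 apart (SE 1.03), and Dlgap2 was 0.69 lower in FOS+ nuclei (SE 0.34, edgeR adjusted p = 0.339), lower in 4 of 4 mice by log2(TPM+1).

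The median log2 difference of the members was set beside that over all genes, for which the share above 0 is not given here. Of 10 members, 9 had a positive log2 difference in DG 1 h FOS+ against HC, with a median of 1.03 (0.00 over all genes), 8 at 4 h (1.48 against 0.23) and 6 at 5 h (1.16 against 0.00). In A>A FOS+ against FOS-, 5 of 10 were above 0, with a median of 0.06 (-0.02 over all genes). In CA1 and VIP FOS+ against FOS-, the medians were -0.33 and -0.44 (-0.01 and 0.05 over all genes). FOS- nuclei of A>A mice against ARC+ nuclei of 5 h mice gave 0 members called by edgeR (0.0% of genes), with 0 at an unadjusted p below 0.05. Those nuclei were sorted as ARC+ and FOS- alike, and Homer3 alone did not overlap between the groups (higher in A>A, as for 1.07% of genes).

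The 31 other genes of the postsynaptic density in a fixed list (PSD-95 family, glutamate receptors, kinases, neuroligins and the binding partners of Shank and Dlgap) were read from the same fits. Baiap2, which encodes the actin regulator IRSp53 that binds Shank, was called in DG 1 h FOS+ against HC (4.08, SE 0.53, edgeR adjusted p = 0.000909), in A>A FOS+ against FOS- (1.73, SE 0.26, adjusted p = 0.0181) and in glutamatergic against GABAergic nuclei (7.08, SE 1.23, adjusted p = 0.00305). In A>A, 4 mice gave both kinds of nuclei, and with the animal as a block Baiap2 was 1.88 (SE 0.25, edgeR adjusted p = 0.461), without a call. That call was also lost without any 1 of mice 24, 25, 26 and 27 (edgeR adjusted p-values of 0.0666 to 0.104), and with sums of 1 nucleus kept, chosen after seeing the data (0.178). Camk2a (2.90, adjusted p = 0.0251) and Grin2b (0.89, adjusted p = 0.00112) were called between cell types alone. Camk2a lost its call without any 1 of the 1 h mice 4 (both of that number), 5 and 10 and HC mouse 8 (edgeR adjusted p-values of 0.0531 to 0.144). So 1 of 31 was called in each DG comparison named and 3 of 31 between cell types, all higher, and 0 at 4 h and 5 h against HC. Over all genes edgeR called 66 in DG 1 h FOS+ against HC, 10 in A>A and 337 between cell types. At 4 h and 5 h it called 60 and 64, and the shares of genes tested are given above. The medians of the list were 0.21 in DG 1 h FOS+ against HC, -0.06 in A>A and 0.95 between cell types, to be read beside the medians over all genes given above.

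Since RSEM divides a gene's count by an effective length that it weighs over transcripts, the ratio of count to TPM gives back that length for each nucleus, which was used to look at the Homer1 transcripts behind the counts. Over 1551 genes with 1 annotated transcript, the length recovered lay within 5% of the annotated one for 89.1%. In the 402 nuclei with at least 10 Homer1 counts, the median was 3277 bases, and the lowest and highest deciles were 2117 and 5681. Transcript Homer1-204, which ends at base 93360462, well short of the end of the gene, and codes for 186 codons, is 5713 bases long. In 85 of the 402 nuclei (21.1%) the length lay within 5% of it. A transcript of 2580 bases came next with 54 nuclei (13.4%), and Homer1-203 (3052 bases, 366 codons) had 38 (9.45%). Other transcripts of similar length cannot be told apart by this ratio, nor can mixtures of several.

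Nuclei near Homer1-204 were found in DG groups with and without FOS, other than HC. They made up 23.1% of 26 nuclei in DG 1 h FOS+, 31.7% of 41 at 4 h, 25.9% of 108 in A>A FOS+, 26.2% of 42 in A>A FOS- and 30.8% of 39 in A>C FOS+. The groups with fewer nuclei had 0 of 6 (HC, which allows a share of up to 50.0%), 1 of 7 (1 h FOS-), 2 of 15 (5 h) and 1 of 5 (A>C FOS-). In CA1 FOS+ nuclei, which had Homer1 at a like level, they were 1 of 32 (3.13%), against 0 of 11 in CA3 FOS+ (up to 27.3%), 2 of 7 in Sub FOS+ and 2 of 5 in VIP FOS- nuclei of 1 h mice. In A>A the mean length over mice was 3608 bases (FOS+) and 3171 bases (FOS-), which lie 0.19 apart on the log2 scale (two-sided exact permutation test over mice, p = 0.2532, n = 6 and 6). With at least 30 counts per nucleus it was 0.26 (exact permutation p = 0.0952), and within the 4 mice with both kinds of nuclei 0.32 (exact test over 16 sign flips, p = 0.25, the smallest possible being 0.125). The other members had tighter lengths in part: Shank1 lay between 7554 and 7563 bases between the quartiles of its nuclei, and Homer2 between 10897 and 10927. The longest Homer2 transcript in GENCODE has 10982 bases. No Shank1 transcript in GENCODE has the length found, the nearest having 6649 and 9826 bases. The reason was not tested, and the match to Homer1-204 rests on lengths from the same GENCODE set.

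**Figure D5:**
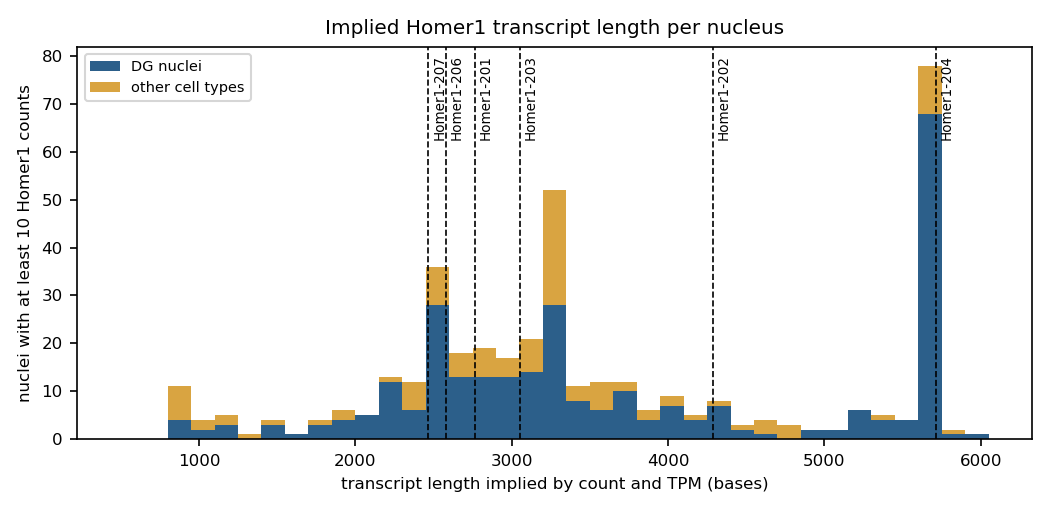
Histogram of the Homer1 length in bases implied by count and TPM, over the nuclei with at least 10 Homer1 counts, stacked as DG nuclei and other cell types, with dashed lines at the lengths of the longer annotated transcripts. One peak lies at Homer1-204 (5713 bases), and another lies near the median of 3277 bases. The first is mostly DG nuclei, as are the nuclei of the whole histogram.

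Over the 26 groups of at least 3 nuclei, the genes whose group means ran most like those of Homer1, among 9906 genes with a mean of at least 1, were Ifrd1 (Pearson r = 0.84), Nr4a2 (0.82) and Rgs7bp (0.82). For Dlgap1 they were Gria3 (0.82), Kalrn (0.82) and Dbn1 (0.77), and for Dlgap2 Trp53bp1 (0.89), Gria1 (0.75) and Malat1 (0.75). For Dlgap3 the most alike was Pdgfa (0.76), for Dlgap4 Cnksr2 (0.79), for Homer2 Pibf1 (0.86), for Homer3 Nhsl1 (0.92), for Shank2 Gm15288 (0.84) and for Shank3 Gm20711 (0.85). Shank1 had no close match, its highest r being 0.70 (Col4a1). Among the members themselves, Homer3 and Shank2 ran most alike (0.57) and Shank3 and Dlgap4 least (-0.39). These correlations describe group means that share mice, pools and depth, and groups of few nuclei count as much as large ones.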

How the data were processed

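RNA was measured in single sorted nuclei with Smart-seq2 libraries and 50-base single-end reads that do not keep strand. Per the study's methods, the authors trimmed reads with Solexa-QA++ and ran RSEM with Bowtie against mm10 and an Ensembl annotation whose release is not given in the sources used here. The authors deposited 1 table of RSEM expected counts and 1 of log2(TPM+1) values per cohort. Nuclei were kept with at least 100000 aligned reads and 4000 genes above log2(TPM+1) of 1, after the study's cutoffs. Also after the study, FOS- nuclei of HC and 1 h with Arc above 2.5 were left out (35 nuclei, most of them CA1). No library was identical to another.

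Expected counts were rounded and summed per mouse and group where a mouse had at least 2 nuclei, a mouse being exposure, pool date and mouse number in the first cohort and exposure and mouse number in the later set (A>A mice 19 and 20, in 2 pool dates, were merged). Sums were tested with edgeR 4.0.16 (TMM, filterByExpr, quasi-likelihood test, Benjamini-Hochberg over all genes tested, threshold 0.05), in separate fits for DG, CA1 and VIP, a fit of all first-cohort groups, and a fit of FOS- nuclei with exposure as a term. SE is the log2 fold change divided by the root of F. P-values of the fits measure the spread between these sums. The main fits treat FOS+ and FOS- sums of the same mouse as separate samples. In DG 1 h FOS+ against FOS- both sums are of 1 mouse, so the spread comes from the other DG groups. DESeq2 1.42.0 on the same sums and limma 3.58.1 on mean log2(TPM+1) were alternatives, as were another scaling, no filter on low counts, at least 5 nuclei per sum, no Arc limit, mice split by pool date and each mouse left out. Keeping sums of 1 nucleus and using 1 pool of 5 h mice alone were chosen after seeing the data. The fit was tested on simulated data. FOS+ and FOS- nuclei of a mouse share its number in the labels, so the animal was also used as a block. Deviations from group means correlated weakly between the 2 kinds of nuclei (r = 0.0688, 0.0315, 0.0181 and 0.0257 for A>A mice 24 to 27).

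The members, the list of 31 partner genes and the tests were chosen with earlier results of these data known. All 10 members are named in each comparison they were called in, and of the partners those called. Promoters are from RefSeq (GRCm38.p6), which matched 7 of 10 members, and gene positions from GENCODE.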

Additional observations from a re-analysis of the deposited data

Results flagged for a closer look

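The 10 members were each tested in the 3 groups of 4 to 10 mice for a mouse far from the others by Dixon's criterion, and 3 of 30 tests picked one out, where chance picks about 1 in 20. Homer2 in A>A FOS- nuclei was at 1.2129 log2(TPM+1) in mouse 24, with the other 5 mice at 0.45 to 0.71. Homer3 in A>A FOS+ nuclei was at 1.4005 in mouse 25 against 0.19 to 0.59. Shank2 at 5 h was at 4.3713 in mouse 8 against 1.52 to 1.99.

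In 13 pairs of groups, every mouse with both FOS+ and FOS- nuclei moved 1 way in the first group and the opposite way in the second. CA1 against VIP is not among them, since edgeR tested that difference (Homer1 3.34, adjusted p = 0.898, and Dlgap3 -3.88, adjusted p = 1.0). The differences of the 13 pairs were not tested, and they rest on 2 to 4 mice per group. With so few mice such pairs can arise by chance, and how many of all genes show them was not counted. For Homer1, the mean difference FOS+ minus FOS- within mice was 1.6314 in CA3 and 3.3866 in A>A, against -0.3792 in VIP. For Dlgap1 it was -0.344 in A>A and -2.2396 in VIP against 1.4872 in Sub. For Dlgap2 it was 1.8254 in CA1, 2.1517 in Sub and 0.6938 in VIP, against -0.3739 in CA3 and -0.938 in A>A, which makes 6 pairs. Dlgap3 was at -1.0564 in CA1 and 1.0589 in Sub. Dlgap4 was at 1.5573 in CA3 against -0.8611 in CA1 and -1.034 in VIP.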

How the results depend on the processing

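Of 320 recomputed counts of called members, 285 were unchanged or within 1.5 times, 20 were higher and 15 lower. Fold changes of members that edgeR did not call turned sign in part, for 23 of 250 with at least 5 nuclei per sum, 12 of 90 with the animal as a block, 35 of 254 with limma and 9 of 270 with DESeq2. No member called by edgeR turned sign under the settings tried with all mice, and Dlgap3 at 5 h turned with the pool of mice. The cause of these changes was not tested. Counts below are members called of 10. DESeq2 gave 1 (edgeR 0) for DG 1 h FOS+ minus FOS-, A>A, A>C and DG minus CA1, 2 (0) for DG minus VIP and CA1 minus VIP, 2 (1) for 1 h FOS+ minus HC and 5 h minus HC, and 3 (1) for 4 h minus HC. limma gave 1 (0) for DG 1 h FOS+ minus FOS-, 4 h minus 1 h FOS+, A>A, A>C and CA3 minus CA1, and 2 (1) for 4 h and 5 h minus HC. DESeq2 size factors in edgeR gave 0 (1) at 4 h. At least 5 nuclei per sum gave 1 (0) in both VIP comparisons. Of the alternatives chosen after seeing the data, sums of 1 nucleus gave 0 (1) at 5 h, and the pool of mice 22 and 23 alone gave 2 (1) at 5 h minus HC and 1 (0) for A>A FOS- minus 5 h. Without 1 mouse the count was 0 to 1 for the 3 comparisons with HC that had a call, and 1 to 2 for glutamatergic minus GABAergic nuclei. The median share of nuclei in which a member was detected was 75.0% with any count, 57.6% above log2(TPM+1) of 1 and 53.3% after thinning to 100000 counts.

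Over all genes the tools differed more. In 1 h FOS+ minus HC, edgeR called 66, DESeq2 1749 and limma 544 genes, and edgeR 21 to 168 without 1 mouse. At 4 h it was 60, 989 and 564 (17 to 180), at 5 h 64, 1971 and 1517 (20 to 204), in A>A 10, 867 and 342 (1 to 8), and between glutamatergic and GABAergic nuclei 337, 2572 and 653 (100 to 318). The other counts by edgeR, DESeq2 and limma were 11, 1025 and 94 for DG 1 h FOS+ minus FOS-, 1, 605 and 10 for 1 h FOS- minus HC, 4, 1230 and 38 for 4 h minus 1 h FOS+, 0, 1119 and 86 for A>C, 0, 1147 and 1 between A>A and A>C FOS+ nuclei, and 0, 1108 and 15 for A>A FOS- minus 5 h. They were 20, 533 and 94 for DG minus CA1, 93, 1043 and 224 for DG minus VIP, 90, 1152 and 262 for CA1 minus VIP, 0, 515 and 123 for CA3 minus CA1, and 2, 701 and 26 for Sub minus CA1. For FOS+ minus FOS- they were 0, 468 and 14 in CA3 and 0, 1330 and 18 in Sub, and in the CA1 and VIP comparisons 0 by edgeR and limma and 131 to 307 by DESeq2. With the animal as a replicate block, no count of members changed, while the genes called by edgeR fell from 10 to 0 in A>A, from 11 to 0 in DG 1 h and from 90 to 10 in CA1 minus VIP. Homer1 in A>A was then 3.03. Same-numbered FOS+ and FOS- sums correlated weakly over genes, which does not settle the pairing for a single gene. The block was kept as an alternative. The block could not be fitted for DG minus CA1, DG minus VIP and glutamatergic minus GABAergic nuclei, nor sums of at least 5 nuclei for Sub and for the latter, and the single mouse of DG 1 h FOS+ minus FOS- could not be left out. Homer3 and Shank3 had a count in 12.5% and 18.8% of nuclei.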
